A study of Danio rerio with 12 samples.

Results

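The comparison was between zebrafish larvae labelled as gcn2 knockout and wild-type larvae after both had spent 8 hours in hypoxia. It rested on 6 of the 12 libraries of the study, 3 from gcn2 knockout larvae and 3 from wild-type larvae. Both groups were whole larvae 3 days after fertilization, raised at 28.5 °C, and both had the hypoxic exposure, so genotype was the labelled difference between them. The other 6 libraries came from the same genotypes kept in normoxia for the same time. Each group had 3 biological replicates, per the study's design text. The knockout allele, the oxygen level and whether the genotypes shared parents are not given in the sources used here. Genes were taken into the comparison when they reached 1 FPKM (fragments per kilobase of gene, scaled for library size) in at least 3 of the 12 libraries, which 21480 of the 35004 listed genes did.

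Gcn2, encoded by eif2ak4, is a protein kinase that binds uncharged transfer RNA when amino acids run short and then phosphorylates the alpha subunit of the translation initiation factor eIF2. Phosphorylated eIF2 holds back its own exchange factor eIF2B, which lowers general protein synthesis while raising translation of the transcription factor ATF4. In mammalian cells ATF4 switches on genes for amino acid uptake, serine and asparagine synthesis, transfer RNA charging and feedback on eIF2 itself. Hypoxia acts separately through the HIF transcription factors, which escape hydroxylation when oxygen is low and raise genes for glycolysis, oxygen supply and mitochondrial turnover.

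The recovered read totals lay between 15668848 and 16651244 in the 6 hypoxia libraries. Reads of the mitochondrial genome took 3.00% to 3.08% of the total in the wild-type hypoxia libraries and 3.65% to 3.75% in the knockout ones, so this share moved with genotype, and its part in the other results was not tested. Red cells, liver, exocrine pancreas, gut, muscle, heart, eye, neurons, skin and cartilage each had detected defining markers. Of the planned markers, ctrb1 (exocrine pancreas), vmhc (heart), mfap4 (macrophages and neutrophils) and fli1a (endothelium) were not found under those symbols. gata1a (red cells) averaged 0.724 FPKM in hypoxic wild type. All differences below are knockout minus wild type on the log2(FPKM + 1) scale with the standard error (SE) of a limma fit. The adjusted p is limma's, corrected by Benjamini-Hochberg over all 21480 genes, and genes under 0.05 were called. The log2 scale with 1 added understates changes of genes near 1 FPKM.

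The message of the targeted gene was lowered but not lost. eif2ak4 (ENSDARG00000104276), which the deposited table places on an unplaced GRCz11 scaffold on the minus strand, stood at 4.24, 4.18 and 4.25 FPKM in the wild-type and 1.55, 1.95 and 1.52 FPKM in the knockout libraries. All 3 knockout libraries were below all 3 wild-type libraries, and the difference was -0.97 ± 0.08 (adjusted p = 4.11e-06). In normoxia it was 3.82, 3.91 and 3.63 FPKM in wild type and 1.66, 1.85 and 1.7 FPKM in the knockout, a difference of -0.81 ± 0.08 (adjusted p = 3.17e-05). The hypoxic and normoxic differences were not separated by the interaction test (adjusted p = 0.377). A message count cannot show whether the remaining transcript makes a kinase.

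The gcn2 knockout label went with many differences of modest size after hypoxia. Of the 21480 genes, 7111 (33.1%) were called, 3641 (17.0%) of them higher in the knockout and 3470 (16.2%) lower. Hypoxic counts of called list members below stand against these shares. Normoxic list counts stand against 7.63% higher and 9.11% lower, and interaction counts against 9.25%, of all tested genes. The median size of a called difference in hypoxia was 0.39, and 4853 of the called genes differed by less than 0.5. A difference over 1 was seen for 301 called genes that were higher and 177 that were lower. The 3 knockout libraries lay entirely above or below the 3 wild-type libraries for 9173 genes (42.7%), and for 6796 of the 7111 called genes. Scaling the libraries to an equal FPKM total moved the share of calls that were higher from 51.2% to 40.0% (2826 higher and 4246 lower), so the balance of directions over the genome depends on scaling. Calls were spread over the genome: the share of tested genes called ran from 26.1% on chromosome 9 to 37.6% on chromosome 1.

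**Figure D1:**
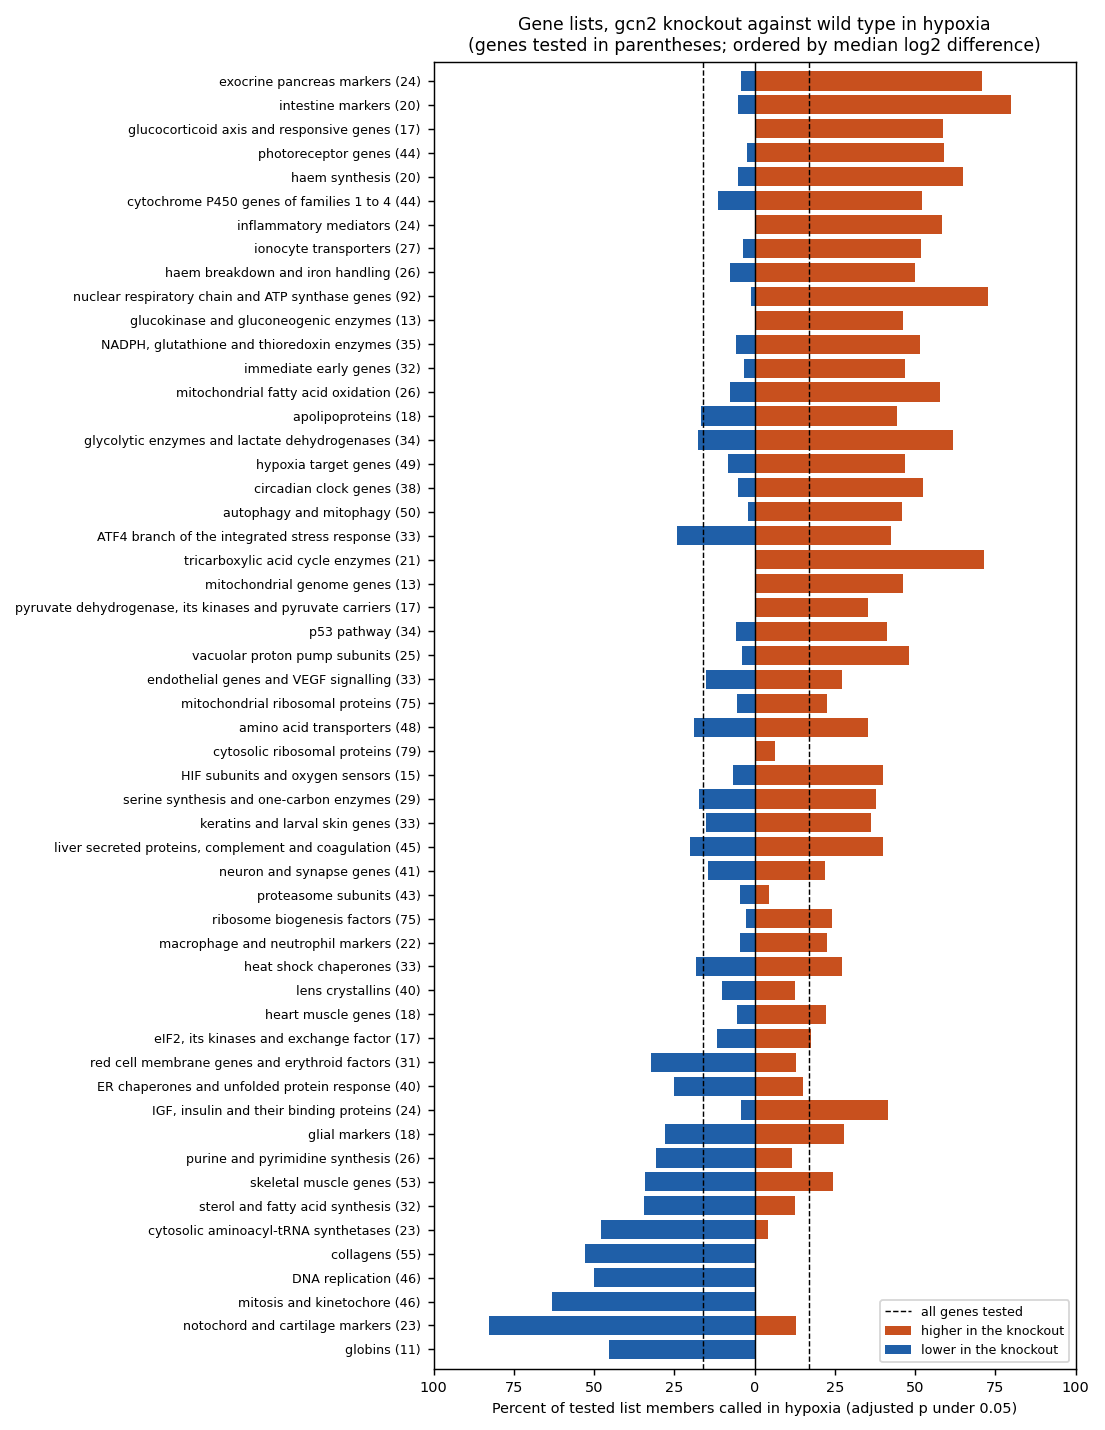
Each bar gives the percentage of the tested members of 1 gene list that were called in hypoxia (adjusted p under 0.05), orange to the right for genes higher in the gcn2 knockout and blue to the left for genes lower, with the number tested in parentheses. The dashed lines mark the shares among all tested genes, 17.0% higher and 16.2% lower; lists are ordered by median log2 difference, from exocrine pancreas markers at the top to globins at the bottom.

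Genes of the ATF4 branch split in both directions in the knockout. Of 37 listed genes 33 were tested, and 14 were called higher and 8 lower, with a median difference of 0.20 against 0.00 for all genes. The lower genes included both ATF4 messages, phgdh, the translation repressor eif4ebp1 and the mitochondrial folate enzymes aldh1l2 and mthfd2. The higher ones included other inhibitors of translation and genes that also answer hypoxia. The count of lower genes was 5 without wild-type replicate 1, without knockout replicate 2 and without knockout replicate 3. The untested members were jdp2b, fgf21, slc7a11 and chac1, and chac1 was listed at 0 in all libraries.

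Both ATF4 messages were lower, and the protein was not measured. atf4a stood at 281, 254 and 258 FPKM in the wild-type and 231, 192 and 209.7 FPKM in the knockout libraries. The atf4a levels did not overlap, and the difference was -0.33 ± 0.06 (adjusted p = 0.00189). Its duplicate atf4b read 106, 106 and 105 FPKM in the wild-type and 98.7, 96.4 and 94.9 FPKM in the knockout libraries, a small separation of -0.13 ± 0.04 (adjusted p = 0.0342). The atf4b call was lost when any 1 of 5 hypoxia libraries was left out, with an adjusted p of 0.0815 without knockout replicate 2, 0.0958 without knockout replicate 3, 0.0556 without wild-type replicate 1, 0.0797 without wild-type replicate 2 and 0.0512 without wild-type replicate 3. It was also lost with the hypoxia libraries alone (0.118), array weights (0.0563), the replicate block (0.0508) and voom (0.0513).

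The lowest members were the mitochondrial folate enzymes aldh1l2 and mthfd2, while shmt2, another enzyme of mitochondrial folate use, was not called (0.09, adjusted p = 0.356). aldh1l2, which oxidises formyl-tetrahydrofolate in mitochondria, was at 10.7, 9.99 and 9.06 FPKM in the wild-type and 5.56, 5.59 and 6.42 FPKM in the knockout libraries. The lowest wild-type value of aldh1l2 was well above the highest knockout value, with a difference of -0.67 ± 0.07 (adjusted p = 3.15e-05). mthfd2, a mitochondrial methylene-tetrahydrofolate dehydrogenase, was at 12.7, 11.3 and 12.8 FPKM in the wild-type and 8.26, 7.39 and 8.32 FPKM in the knockout libraries. Again no knockout library reached the wild-type range, and mthfd2 differed by -0.56 ± 0.06 (adjusted p = 3.75e-05). phgdh, the first enzyme of serine synthesis, was at 27.6, 25.3 and 22.2 FPKM in the wild-type and 19.8, 18.6 and 18.7 FPKM in the knockout libraries, a difference of -0.37 ± 0.07 (adjusted p = 0.00222). The translation repressor eif4ebp1 differed by -0.34 ± 0.06 (adjusted p = 0.000968). sesn2, a leucine-sensing inhibitor of TORC1, and cbsb, a cystathionine synthase, passed the test narrowly at -0.32 ± 0.11 (adjusted p = 0.0428) and -0.22 ± 0.08 (adjusted p = 0.0462). The sesn2 call was lost without wild-type replicate 1 (adjusted p = 0.151), without wild-type replicate 3 (0.0586), without knockout replicate 2 (0.169) and without knockout replicate 3 (0.0718). The cbsb call was lost without wild-type replicate 1 (0.164) or 2 (0.112) and without knockout replicate 2 (0.14) or 3 (0.121). Fitting the hypoxia libraries alone ended both calls (0.0942 for sesn2 and 0.122 for cbsb), as did no filter (0.0702 and 0.0612). The sesn2 call was also lost with array weights (0.0543) and the replicate block (0.0608), and the cbsb call with a pseudocount of 0.1 (0.0504).

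Several genes of the ATF4 list were higher in the knockout instead. eif4ebp3, which blocks the cap-binding factor eIF4E, stood at 20.6, 20.3 and 22.0 FPKM in the wild-type and 48.0, 45.2 and 38.3 FPKM in the knockout libraries. The 3 knockout values of eif4ebp3 were all well above wild type, at a difference of 1.02 ± 0.08 (adjusted p = 3.15e-06). Its relative eif4ebp3l was at 73.1, 68.5 and 66.8 FPKM in the wild-type and 137, 118 and 104 FPKM in the knockout libraries, a difference of 0.77 ± 0.09 (adjusted p = 3.85e-05). pck2, the mitochondrial phosphoenolpyruvate carboxykinase, was at 60.3, 50.1 and 63.6 FPKM in the wild-type and 105, 109.6 and 104 FPKM in the knockout libraries. No pck2 value overlapped between the genotypes, and the difference was 0.87 ± 0.07 (adjusted p = 4.07e-06). ddit4, a hypoxia-responsive inhibitor of TORC1 also called REDD1, reached 52.0, 49.7 and 47.6 FPKM in wild type and 102, 73.6 and 71.7 FPKM in the knockout. Knockout replicate 1 gave the highest ddit4 value and all 3 exceeded wild type, for a difference of 0.70 ± 0.11 (adjusted p = 0.000409).

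Other called genes on the higher side were stc2b (0.73), a stanniocalcin glycoprotein; cebpb (0.65), a bZIP partner of ATF4; slc3a2b (0.55), the heavy chain of amino acid transporters; cth (0.51) and cthl (0.46), which make cysteine from cystathionine; and nupr1a (0.48), a stress-induced chromatin protein. ppp1r15a, also called GADD34, the phosphatase subunit that removes phosphate from eIF2 alpha, was at 64.8, 63.3 and 60.6 FPKM in the wild-type and 104, 80.1 and 76.8 FPKM in the knockout libraries. All knockout ppp1r15a values were above wild type, with replicate 1 highest, and the difference was 0.45 ± 0.09 (adjusted p = 0.00263). psat1, the serine pathway transaminase that follows phgdh, was higher by 0.42 ± 0.09 (adjusted p = 0.00306) although phgdh was lower. nupr1b (0.33 ± 0.11, adjusted p = 0.0304) and stc2a (0.23 ± 0.08, adjusted p = 0.0437) were called narrowly. The nupr1b call was lost without knockout replicate 1 (adjusted p = 0.114) or 2 (0.0977) and without wild-type replicate 2 (0.102) or 3 (0.105). The stc2a call was lost without knockout replicate 1 (0.0988) or 2 (0.16) and without wild-type replicate 1 (0.112) or 2 (0.109). With the hypoxia libraries alone the adjusted p was 0.0812 for nupr1b and 0.0705 for stc2a, and with no filter 0.0566 and 0.0606. The stc2a call was also lost under equal FPKM totals (0.161), read totals (0.0687), array weights (0.0819) and the replicate block (0.0501).

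The remaining 11 tested members did not pass. asns, which makes asparagine and is a widely used ATF4 reporter, was at 5.14, 5.08 and 4.32 FPKM in the wild-type and 4.33, 4.01 and 4.64 FPKM in the knockout libraries. The asns ranges overlapped and the difference was -0.13 ± 0.07 (adjusted p = 0.191). ddit3, the factor CHOP, was at 31.9, 32.4 and 32.7 FPKM in the wild-type and 37.2, 38.4 and 36.3 FPKM in the knockout libraries, higher in each knockout library, yet its difference of 0.20 ± 0.08 (adjusted p = 0.0648) missed the threshold, and passed it with the hypoxia libraries alone (0.035) and with voom (0.0452). trib3 (0.28 ± 0.10) and atf3 (0.30 ± 0.11), a pseudokinase and a bZIP factor induced by stress, likewise missed it in the fit of all libraries (adjusted p = 0.0552 and 0.051). Each crossed it without knockout replicate 3 (adjusted p = 0.0208 for trib3 and 0.0374 for atf3) and with voom (0.0213 and 0.0257). trib3 also did without wild-type replicate 1 (0.0305), with the filter at 5 FPKM (0.0416) and under read totals (0.0426), and atf3 with the hypoxia libraries alone (0.0477). psph, shmt2, atf5a, atf5b, cebpg, slc3a2a and vldlr had differences between -0.18 and 0.12. atf5a passed without knockout replicate 1 (adjusted p = 0.0284) and vldlr without wild-type replicate 3 (0.0345).

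**Figure D2:**
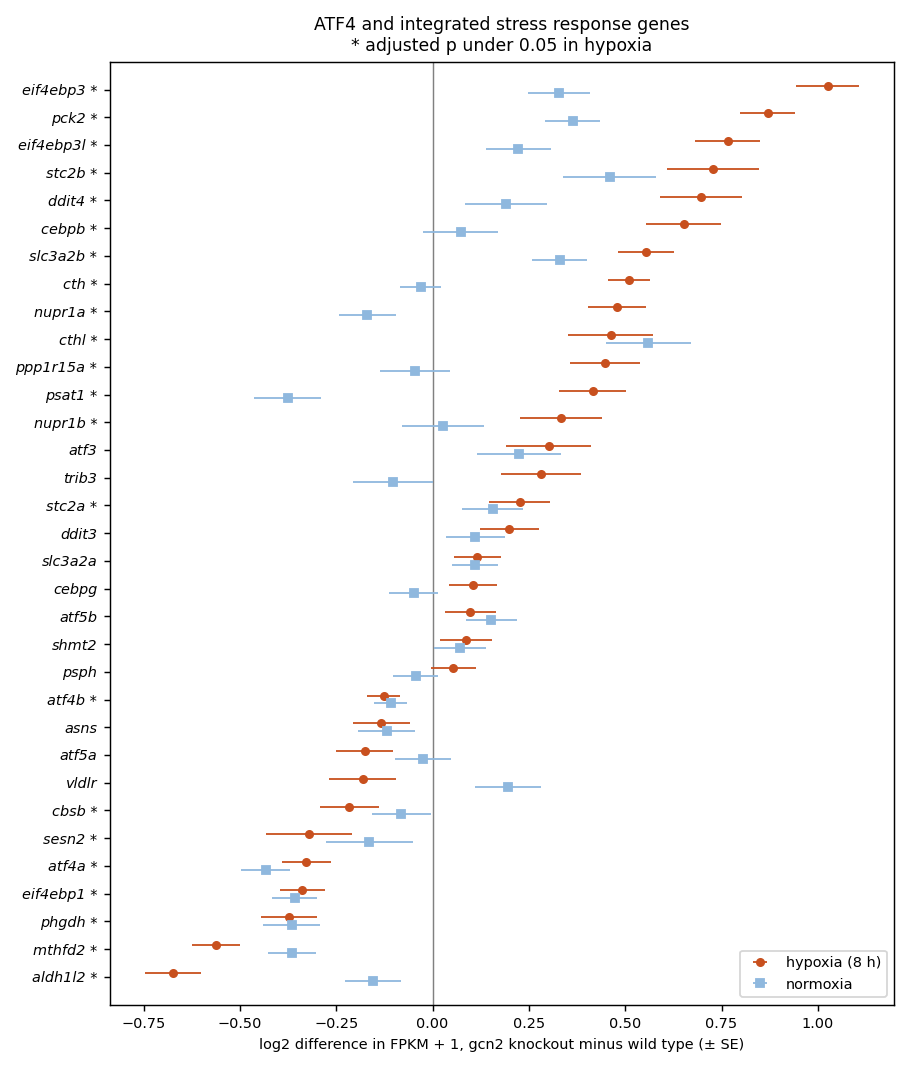
Log2 difference in FPKM + 1 (knockout minus wild type) with its SE for the 33 tested genes of the ATF4 list, in hypoxia (orange circles) and normoxia (blue squares), with an asterisk at genes called in hypoxia. The hypoxic differences run from -0.67 for aldh1l2 to 1.02 for eif4ebp3.

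**Figure D3:**
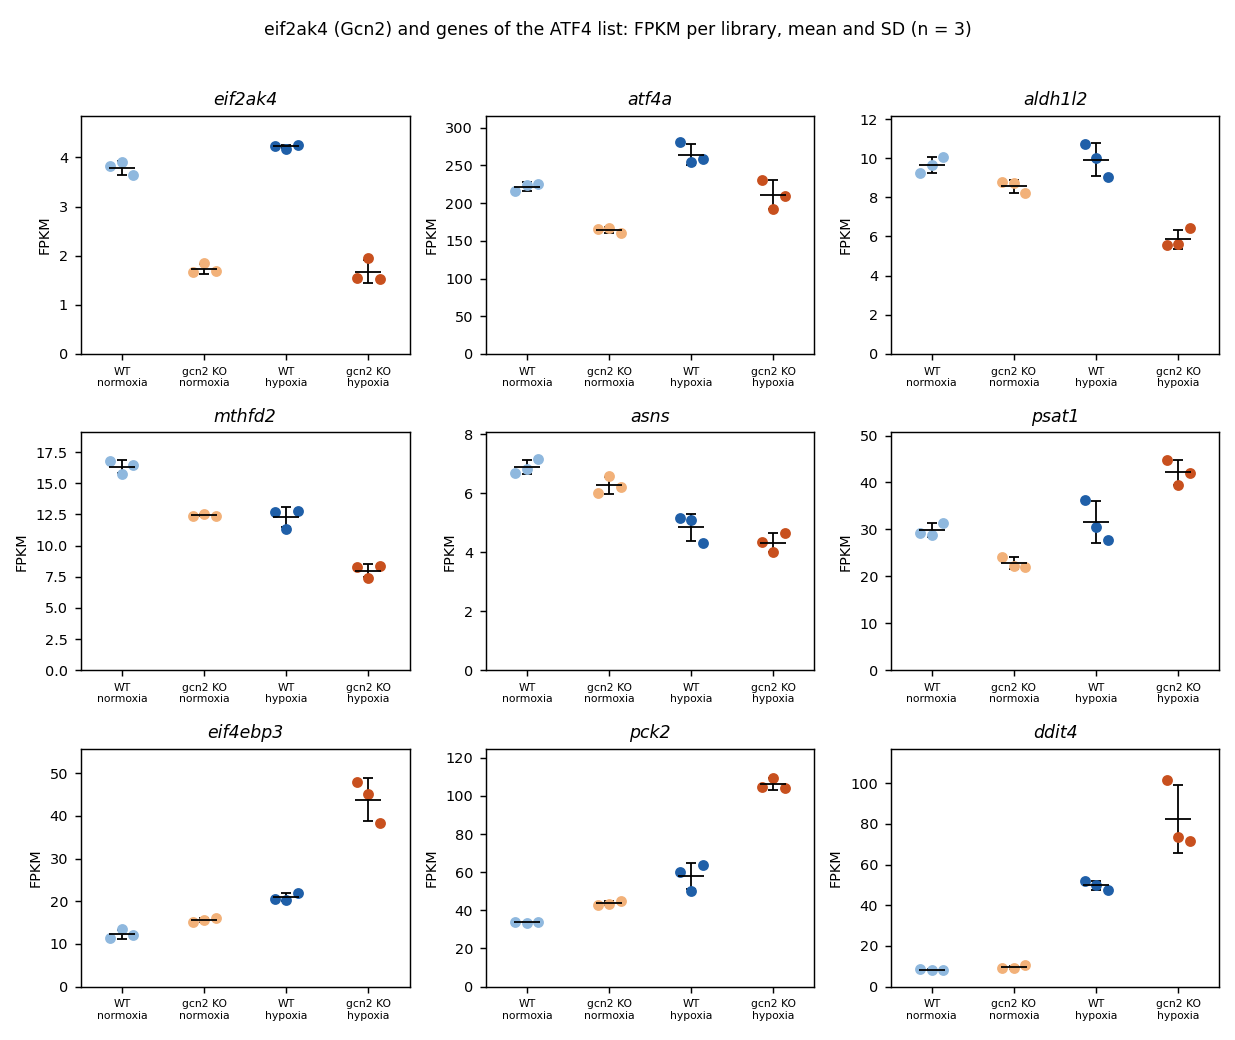
FPKM of eif2ak4 and 8 genes of the ATF4 list in each of the 12 libraries (points), with the mean (horizontal line) and SD (error bar, n = 3) of each genotype and oxygen group. eif2ak4 stays below 2 FPKM in the 6 knockout libraries, whereas eif4ebp3, pck2 and ddit4 are highest in the knockout hypoxia group.

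In the list of eIF2, its kinases and its exchange factor, 3 of 17 tested genes were higher (eif2s1b, eif2b5 and ppp1r15a) and 2 lower (eif2ak4 and gcn1). That is 29.4% called, near the 33.1% of all tested genes, with a median of 0.01 that turned to -0.05 under equal FPKM totals, where 4 were lower. gcn1, the ribosome-bound activator of Gcn2, was at 13.8, 16.04 and 12.9 FPKM in the wild-type and 9.66, 10.7 and 11.9 FPKM in the knockout libraries. The gcn1 ranges were separate and the difference was -0.37 ± 0.08 (adjusted p = 0.00424). The other eIF2 kinases were not called: eif2ak3 (PERK) differed by -0.20 ± 0.08, eif2ak1 (HRI) by -0.15 ± 0.08 and eif2ak2 (PKR) by 0.21 ± 0.13, with adjusted p of 0.0665, 0.164 and 0.24. eif2ak3 passed with the replicate block (0.0409) and with voom (0.0497), and eif2ak1 under equal FPKM totals (0.0473). eif2s1b, an eIF2 alpha gene, was higher by 0.21 ± 0.06 (adjusted p = 0.0142), while its duplicate eif2s1a differed by -0.03 ± 0.07. The eif2s1b call was lost with the hypoxia libraries alone (adjusted p = 0.062). eif2b5, the catalytic subunit of eIF2B, was higher by 0.23 ± 0.05 (adjusted p = 0.00584). The other subunits of eIF2 (eif2s2 and eif2s3) and eIF2B (eif2b1, eif2b2, eif2b3 and eif2b4), the phosphatase subunit ppp1r15b and impact, which restrains Gcn2 in mammals, were not called, with differences between -0.09 (eif2s3) and 0.23 (impact). impact passed without wild-type replicate 1 (adjusted p = 0.0174), and eif2s3 as lower under equal FPKM totals (0.0106).

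Amino acid handling changed without a single direction. Of 48 tested amino acid transporters 17 were higher and 9 lower, at a median of 0.12. Among all tested genes 17.0% were higher and 16.2% lower. The neutral amino acid carrier slc1a4 was at 17.2, 15.4 and 14.2 FPKM in the wild-type and 9.0, 7.7 and 8.91 FPKM in the knockout libraries. All wild-type slc1a4 values were above all knockout values, a difference of -0.80 ± 0.08 (adjusted p = 1.32e-05). slc7a6, a carrier that exchanges basic for neutral amino acids, was at 7.15, 6.72 and 6.89 FPKM in the wild-type and 10.7, 11.2 and 11.0 FPKM in the knockout libraries. That gene was tightly grouped and higher in the knockout by 0.59 ± 0.05 (adjusted p = 8.8e-06). The gut carriers slc6a19b (1.55 ± 0.13, adjusted p = 5.66e-06) and slc15a1a (1.57 ± 0.15, adjusted p = 1.32e-05), a neutral amino acid and a peptide transporter, were higher by more.

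Serine and one-carbon enzymes numbered 11 higher and 5 lower of 29, and 9 lower under equal FPKM totals. In the fit of all libraries 55.2% of this list were called, against 33.1% of all tested genes. mat1a, which makes S-adenosylmethionine in liver, was at 58.5, 50.6 and 53.8 FPKM in the wild-type and 86.6, 87.5 and 87.0 FPKM in the knockout libraries. The mat1a difference was 0.67 ± 0.05 (adjusted p = 3.12e-06), with no overlap. gcshb, a glycine cleavage protein, was at 10.6, 9.05 and 12.9 FPKM in the wild-type and 24.8, 22.7 and 22.7 FPKM in the knockout libraries. Here too the groups were separate, by 1.05 ± 0.10 (adjusted p = 1.16e-05). Cytosolic transfer RNA synthetases, which charge tRNA with amino acids, were lower in 11 of 23 cases and higher in 1, with 11 not called, at a median of -0.17, and 7 were lower without wild-type replicate 2, knockout replicate 2 or knockout replicate 3. aars1, the alanine enzyme, was at 58.8, 52.6 and 52.9 FPKM in the wild-type and 41.3, 40.8 and 40.1 FPKM in the knockout libraries. All aars1 values in the knockout were below wild type, at -0.42 ± 0.05 (adjusted p = 5.49e-05). sars1 (-0.44 ± 0.07, adjusted p = 0.000466), nars1 (-0.43 ± 0.06, adjusted p = 0.000352) and tars1 (-0.33 ± 0.05, adjusted p = 0.000486), the serine, asparagine and threonine enzymes, were lower by similar amounts. In normoxia 8 of the 23 synthetases were lower and none higher, at a median of -0.16.

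HIF target genes were more often called higher than lower in the knockout. Of 50 listed HIF target genes 49 were tested, and 23 were higher and 4 lower, at a median of 0.21. Their summed level was 1240 to 1323 FPKM in the wild-type and 1543 to 1697 FPKM in the knockout hypoxia libraries. The count of higher genes was 15 without knockout replicate 1 and 15 under equal FPKM totals, where the median was 0.16. igfbp1b, a hypoxia-induced IGF binding protein, was at 6.11, 5.55 and 4.83 FPKM in the wild-type and 17.4, 16.2 and 14.6 FPKM in the knockout libraries. The lowest igfbp1b value of the knockout was far above the highest of wild type, for 1.4 ± 0.11 (adjusted p = 4.11e-06). ndrg1b, a stress-response gene, read 51.5, 44.7 and 58.0 FPKM in the wild-type and 118, 106 and 97.03 FPKM in the knockout libraries. No library of either genotype entered the ndrg1b range of the other, and the difference was 1.04 ± 0.09 (adjusted p = 6.21e-06). higd1a, which binds the respiratory chain in hypoxia, differed by 1.03 ± 0.07 (adjusted p = 1.79e-06), and bnip3lb, a mitophagy receptor, by 0.64 ± 0.07 (adjusted p = 2.3e-05).

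Of the HIF subunits and their sensors 6 were higher and 1 lower of 15 tested, which is 46.7% called, against 33.1% of all tested genes. Only 3 were higher without knockout replicate 1, without wild-type replicate 2 or under equal FPKM totals, which also gave 2 lower. The oxygen sensor egln1b was listed at 0. The HIF prolyl hydroxylase egln3, itself a HIF target, was at 32.0, 32.5 and 30.3 FPKM in the wild-type and 47.5, 42.5 and 43.6 FPKM in the knockout libraries. All egln3 values in the knockout were higher, by 0.48 ± 0.06 (adjusted p = 0.000157). hif1al, a HIF alpha gene, was at 79.1, 73.2 and 76.9 FPKM in the wild-type and 118, 111 and 99.0 FPKM in the knockout libraries. The hif1al groups did not meet, at a difference of 0.51 ± 0.07 (adjusted p = 0.000135). epas1b (HIF-2 alpha) was higher by 0.52 ± 0.08 (adjusted p = 0.000549).

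Calls at hif1aa (0.36 ± 0.11, adjusted p = 0.0231), epas1a (0.24 ± 0.08, adjusted p = 0.032), vhl (0.31 ± 0.11, adjusted p = 0.0432), which marks hydroxylated HIF for destruction, and hif1al2 (-0.49 ± 0.13, adjusted p = 0.0142) were each lost when some single libraries were left out. Without knockout replicate 3 the adjusted p was 0.0857 for hif1aa, 0.0961 for epas1a and 0.0573 for hif1al2, and without wild-type replicate 1 it was 0.0643 for hif1aa, 0.0519 for vhl and 0.0519 for hif1al2. Without wild-type replicate 2 it was 0.0939 for hif1aa, 0.133 for epas1a and 0.126 for vhl, and without knockout replicate 1 it was 0.0629, 0.0576 and 0.175 for the same genes. Without knockout replicate 2 the values were 0.0587 for epas1a and 0.0885 for vhl, and without wild-type replicate 3 vhl was at 0.0842. With the hypoxia libraries alone it was 0.0532 for hif1aa, 0.0758 for epas1a and 0.0528 for vhl, and under equal FPKM totals 0.0613, 0.078 and 0.0744. The vhl call was also lost with array weights (0.107), no filter (0.0713), a pseudocount of 0.1 (0.0574) and the replicate block (0.0569). The major larval HIF-1 alpha gene hif1ab differed by -0.10 ± 0.04 (adjusted p = 0.103), the asparagine hydroxylase hif1an by -0.05 ± 0.09, and egln1a, egln2, arnt and vhll by 0.01 to 0.10, none of them called. arnt2 (-0.27 ± 0.10, adjusted p = 0.0621), a HIF beta subunit, crossed the threshold without knockout replicate 3 (adjusted p = 0.0203) and without wild-type replicate 1 (0.0288). It also did under equal FPKM totals (0.0474), with the filter at 5 FPKM (0.0472) and with voom (0.0153).

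Globin messages, which make up most of the RNA of red cells, were lower or not separated, and none was called higher. Of 15 listed globins 11 passed the expression filter, and hbba1, hbba2, hbaa1 and hbaa2, the remaining 4, did not. Of the 11, 5 were lower in hypoxia, at a median of -0.60, and 6 in normoxia, at a median of -0.63. The embryonic beta globin hbbe2 was at 506, 495 and 456 FPKM in the wild-type and 218, 203 and 208 FPKM in the knockout libraries. Wild-type hbbe2 values were far above those of the knockout and close together, at a difference of -1.21 ± 0.05 (adjusted p = 2.01e-08). The embryonic alpha globin hbae5 was at 21.9, 23.1 and 15.5 FPKM in the wild-type and 9.37, 7.7 and 9.5 FPKM in the knockout libraries. Its knockout values were below all wild-type values, at -1.09 ± 0.17 (adjusted p = 0.000451). hbae3 was at 1541, 1315 and 994 FPKM in the wild-type and 759.7, 639.8 and 742 FPKM in the knockout libraries. Wild-type replicate 3 was nearest to the knockout but still above it, and hbae3 differed by -0.83 ± 0.12 (adjusted p = 0.000306).

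Several other globins varied widely among the wild-type libraries. hbbe1.3 was at 781, 604 and 419 FPKM in the wild-type and 410.2, 364 and 417 FPKM in the knockout libraries, where wild-type replicate 1 was highest and replicate 3 lowest. Its difference of -0.55 ± 0.16 (adjusted p = 0.0204) was called, but not without wild-type replicate 1 (adjusted p = 0.0622), without wild-type replicate 2 (0.0638), without knockout replicate 2 (0.0709) or with the hypoxia libraries alone (0.0668). hbae1.3 was lower, at -0.60 ± 0.13 (adjusted p = 0.00374). hbbe1.1 (-0.32 ± 0.12, adjusted p = 0.0526), hbbe1.2 (-0.28 ± 0.44, adjusted p = 0.657), hbae1.1 (-0.27 ± 0.27, adjusted p = 0.473), hbae1.2 (-0.69 ± 0.34, adjusted p = 0.143) and hbbe3 (-1.26 ± 0.50, adjusted p = 0.0691) were not called, and neither was hbae4 (0.30 ± 0.15, adjusted p = 0.131). Without wild-type replicate 3, the lowest wild-type library at these globins except hbae4, 9 globins were lower: hbbe1.1 (adjusted p = 0.00516), hbbe1.2 (0.019), hbae1.2 (0.00185) and hbbe3 (0.000443) then passed. hbbe1.1 also passed under equal FPKM totals (0.0079), read totals (0.0252), the filter at 5 FPKM (0.0393), the replicate block (0.0426) and voom (0.0108). hbae4 passed as higher without knockout replicate 2 (0.031). Globin genes within a cluster are close copies and the handling of shared reads is not given in the sources used here, so single-copy values are uncertain. In RNA from whole larvae, fewer red cells and less globin RNA per cell cannot be told apart.

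Red cell genes other than globins were called lower in 10 of 31 cases and higher in 4, with 15 positive and 16 negative differences and a median of -0.02 whose sign changed without knockout replicate 2 (0.02) or 3 (0.02), and 2 were higher without knockout replicate 1. Their summed level was 614.1 to 689.0 FPKM in wild type and 678.1 to 722.5 FPKM in the knockout. In the fit of all libraries 45.2% of this list were called, against 33.1% of all tested genes. slc4a1a, the band 3 anion exchanger of the red cell membrane, was at 50.6, 44.9 and 42.4 FPKM in the wild-type and 29.5, 31.4 and 33.2 FPKM in the knockout libraries. The slc4a1a ranges were apart, at -0.54 ± 0.07 (adjusted p = 0.00018). The membrane skeleton genes epb41b (protein 4.1) and sptb (beta spectrin) were lower, at -0.73 ± 0.10 (adjusted p = 0.000174) and -0.41 ± 0.06 (adjusted p = 0.000412). rhag, a Rhesus ammonia transporter found in red cells and ionocytes, was higher by 0.53 ± 0.07 (adjusted p = 0.000174). gata1a, the erythroid master regulator, was near the detection limit, with means of 0.724 FPKM in wild type and 1.143 FPKM in the knockout (adjusted p = 0.136).

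In haem synthesis the erythroid first step was lower and other genes were higher. alas2, the red cell form of the rate-limiting enzyme, was at 12.4, 10.6 and 7.31 FPKM in the wild-type and 3.72, 4.71 and 4.01 FPKM in the knockout libraries. All knockout values of alas2 lay below wild type, at -1.09 ± 0.16 (adjusted p = 0.000346). It was the single lower gene of the 20 tested in that list, and 13 were higher, at a median of 0.34. clpxa and clpxb, whose protein activates the enzyme in mitochondria, were higher by 0.53 ± 0.06 (adjusted p = 4.24e-05) and 0.57 ± 0.06 (adjusted p = 4.53e-05), and cpox, coproporphyrinogen oxidase, by 0.51 ± 0.08 (adjusted p = 0.00036). The normoxic means of alas2 were 7.28 FPKM in wild type and 2.99 FPKM in the knockout.

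Genes that bind, break down or store haem and iron were higher in 13 of 26 cases and lower in 2, with 4 lower under equal FPKM totals. In the fit of all libraries 57.7% of this list were called, against 33.1% of all tested genes. The summed levels of the list overlapped, at 1200 to 1399 FPKM in wild type and 1190 to 1271 FPKM in the knockout. hpxa, haemopexin, the plasma carrier of free haem (ENSDARG00000012609, GRCz11 chr9:32840114-32847642, minus strand), was at 2.1, 1.39 and 2.06 FPKM in the wild-type and 20.4, 22.1 and 16.6 FPKM in the knockout libraries. The lowest hpxa value in the knockout was several times the highest in wild type, for a difference of 2.86 ± 0.12 (adjusted p = 1.81e-08). hmox1a, haem oxygenase, which opens the haem ring, was at 10.9, 10.0 and 11.8 FPKM in the wild-type and 33.4, 28.8 and 28.6 FPKM in the knockout libraries. Knockout values of hmox1a were far above any wild-type value, by 1.39 ± 0.08 (adjusted p = 3.28e-07). The ferritin-like genes fthl28 (1.2 ± 0.11, adjusted p = 1.16e-05) and fthl31 (1.05 ± 0.07, adjusted p = 1.7e-06), of an iron storage family with many close copies, were higher as well.

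Glycolytic enzymes and lactate dehydrogenases were higher in 21 of 34 cases and lower in 6, at a median of 0.22, with 3 lower when knockout replicate 2 was left out. ldhbb, a lactate dehydrogenase, was at 16.7, 16.3 and 21.5 FPKM in the wild-type and 37.6, 37.5 and 36.7 FPKM in the knockout libraries. All ldhbb values of the knockout exceeded wild type, by 1.01 ± 0.09 (adjusted p = 1.19e-05). aldoca (0.82 ± 0.11, adjusted p = 0.000118), pfkpb (0.56 ± 0.07, adjusted p = 8.9e-05) and pgam1b (0.50 ± 0.05, adjusted p = 2.3e-05), an aldolase, a phosphofructokinase and a phosphoglycerate mutase, were higher too. Among glucokinase and the gluconeogenic enzymes 6 of 13 were higher and none lower. fbp1b, fructose bisphosphatase, was at 89.99, 72.7 and 80.5 FPKM in the wild-type and 174, 174 and 154 FPKM in the knockout libraries. All 3 knockout libraries exceeded the wild-type fbp1b range, a difference of 1.04 ± 0.08 (adjusted p = 2.79e-06). pck1, the cytosolic phosphoenolpyruvate carboxykinase, and g6pc1a.2, glucose-6-phosphatase, were higher by 0.51 ± 0.07 (adjusted p = 0.000152) and 0.63 ± 0.10 (adjusted p = 0.000408).

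Of the 5 tested kinases that switch off pyruvate dehydrogenase, 4 were higher. pdk2a was at 42.0, 40.1 and 47.7 FPKM in the wild-type and 108, 94.1 and 84.4 FPKM in the knockout libraries. The pdk2a groups were far apart, by 1.12 ± 0.08 (adjusted p = 1.92e-06). pdk2b was at 21.7, 21.3 and 31.8 FPKM in the wild-type and 96.3, 66.8 and 50.9 FPKM in the knockout libraries, with knockout replicate 1 highest, and all knockout values were above wild type by 1.45 ± 0.23 (adjusted p = 0.000513). pdk4 was higher by 0.73 ± 0.08 (adjusted p = 2.91e-05) and pdk3a by 0.34 ± 0.08 (adjusted p = 0.00864), and pdk1 was not called (0.18 ± 0.08, adjusted p = 0.114) except without wild-type replicate 1 (adjusted p = 0.0457). pdk3a and pdk1 were added to these genes after their values were seen. The enzyme's own alpha subunit pdha1a was higher by 0.19 ± 0.04 (adjusted p = 0.00658), a call lost under equal FPKM totals (0.0518). In the list of the dehydrogenase, its kinases and pyruvate carriers, 6 of 17 were higher and none lower. That is 35.3% called, near the 33.1% of all tested genes.

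Nuclear genes of the respiratory chain and ATP synthase were higher in most cases. Of 98 listed genes 92 were tested, 67 were higher and 1 lower, and 90 of the 92 differences were positive, at a median of 0.27. Their summed level was 9961 to 11400 FPKM in wild-type and 12000 to 13440 FPKM in knockout hypoxia libraries. Without knockout replicate 1 the count of higher genes was 42. ndufs6, a complex I subunit, was at 37.4, 34.2 and 35.1 FPKM in the wild-type and 59.9, 52.0 and 49.8 FPKM in the knockout libraries. The ndufs6 ranges did not touch, at 0.58 ± 0.06 (adjusted p = 3.91e-05). uqcrh of complex III (0.42 ± 0.05, adjusted p = 4.81e-05), the ATP synthase inhibitor atp5if1b (0.54 ± 0.05, adjusted p = 1.18e-05) and ndufa4l2a (0.88 ± 0.11, adjusted p = 7.28e-05), a HIF-induced relative of a complex IV subunit, were also higher. Tricarboxylic acid cycle enzymes followed, with 15 of 21 higher and none lower at a median of 0.20. Examples were sdhc (0.37 ± 0.05, adjusted p = 0.000289) and sdhdb (0.24 ± 0.05, adjusted p = 0.00277) of succinate dehydrogenase, idh3a of isocitrate dehydrogenase (0.26 ± 0.04, adjusted p = 0.000954) and suclg2 of succinyl-CoA ligase (0.41 ± 0.08, adjusted p = 0.00149).

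Genes on the mitochondrial genome, all 13 with positive differences, were called higher in 6 cases at a median of 0.17. MT-CO1, a core subunit of complex IV, was at 7291, 7094 and 7318 FPKM in the wild-type and 9146, 9221 and 9208 FPKM in the knockout libraries. MT-CO1 thus did not overlap, at 0.35 ± 0.05 (adjusted p = 0.000427), and MT-CO2 (0.39), MT-CO3 (0.27) and MT-CYB (0.32) were called higher too. The MT-CO3 call was lost with the hypoxia libraries alone (adjusted p = 0.0676) and with no filter (0.0583). The mitochondrial read share moved the same way, as given above. Fatty acid oxidation was higher in 15 of 26 cases and lower in 2. cpt1ab, the gatekeeper of fatty acid entry into mitochondria, was at 27.1, 26.1 and 29.6 FPKM in the wild-type and 56.4, 55.5 and 54.2 FPKM in the knockout libraries. The cpt1ab ranges were far apart and tight within each genotype, by 0.98 ± 0.06 (adjusted p = 2.85e-07). The acyl-CoA dehydrogenases acadm (0.50 ± 0.06, adjusted p = 6.51e-05) and acadvl (0.37 ± 0.05, adjusted p = 0.000171) were higher, and hadhaa, a trifunctional protein subunit, was lower (-0.37 ± 0.05, adjusted p = 0.000238).

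Of 32 tested genes of sterol and fatty acid synthesis 11 were lower and 4 higher, and 17 were not called, at a median of -0.16. Their summed levels overlapped, at 189.5 to 198.9 FPKM in wild type and 182.7 to 196.1 FPKM in the knockout. hmgcra, the rate-limiting enzyme of cholesterol synthesis, was at 1.2, 1.76 and 2.17 FPKM in the wild-type and 0.443, 0.668 and 0.499 FPKM in the knockout libraries. hmgcra was low in both genotypes and below wild type in each knockout library, at -0.80 ± 0.12 (adjusted p = 0.000368). cyp51 (-0.92 ± 0.10, adjusted p = 4.03e-05), a later enzyme of the pathway, and the LDL receptor gene ldlrb (-0.54 ± 0.08, adjusted p = 0.000393) were lower too. In normoxia 15 of the 32 genes were lower and 1 higher, at a median of -0.29.

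Apolipoproteins divided, with 8 of 18 higher and 3 lower. That is 61.1% called, against 33.1% of all tested genes. apoba, the backbone of large lipoproteins, was at 24.1, 19.3 and 19.01 FPKM in the wild-type and 6.9, 8.3 and 7.45 FPKM in the knockout libraries. Each knockout value of apoba was far under the lowest wild-type one, at -1.34 ± 0.10 (adjusted p = 2.83e-06). apoeb, apolipoprotein E of yolk, liver and glia, was at 360.5, 306 and 353 FPKM in the wild-type and 703, 671 and 634 FPKM in the knockout libraries. The apoeb direction was the opposite, at 0.98 ± 0.09 (adjusted p = 7.57e-06).

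Digestive organ markers were the lists with the highest medians. Of 31 listed exocrine pancreas markers 24 were tested, and 17 were higher and 1 lower, at a median of 0.81. Their summed level was 181.6 to 340.2 FPKM in wild type and 480.8 to 593.4 FPKM in the knockout. The same list had 16 higher and 1 lower in normoxia, and none of the 24 had an interaction call. Among all tested genes 7.63% were higher and 9.11% lower in normoxia, and 9.25% had an interaction call. prss59.1, a trypsin, was at 11.7, 6.16 and 15.1 FPKM in the wild-type and 28.3, 37.4 and 31.6 FPKM in the knockout libraries. Wild-type prss59.1 values were scattered but all below the knockout, by 1.55 ± 0.25 (adjusted p = 0.000522). ctrb.1 (chymotrypsinogen) and cpa1 (carboxypeptidase A) were higher by 1.42 ± 0.20 (adjusted p = 0.000219) and 1.22 ± 0.16 (adjusted p = 0.000143).

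Of 20 tested intestinal markers 16 were higher and 1 lower, at a median of 0.72. In normoxia 12 were higher, against 7.63% of all tested genes. fabp2, the enterocyte fatty acid binding protein, was at 80.5, 54.8 and 71.1 FPKM in the wild-type and 153, 158 and 135 FPKM in the knockout libraries. The fabp2 groups were clearly apart, by 1.11 ± 0.11 (adjusted p = 2.28e-05). mep1a.2, a brush border metalloprotease, was at 0.0935, 0.0226 and 0.183 FPKM in the wild-type and 1.66, 2.04 and 1.77 FPKM in the knockout libraries. It was nearly undetected in wild type, and the difference was 1.36 ± 0.11 (adjusted p = 2.99e-06). chia.2, an acidic chitinase of the gut, was higher by 1.87 ± 0.19 (adjusted p = 2.12e-05).

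Secreted liver proteins were mixed, with 18 of 45 higher and 9 lower, and 5 lower without knockout replicate 2, knockout replicate 3 or wild-type replicate 1. fabp10a, the liver fatty acid binding protein, was at 35.2, 36.4 and 37.3 FPKM in the wild-type and 72.8, 87.5 and 82.4 FPKM in the knockout libraries. The fabp10a level was higher in the knockout without overlap, at 1.13 ± 0.07 (adjusted p = 8.12e-07). Of the other defining liver markers, fgb was higher (0.43, adjusted p = 0.00404) and tfa was lower (-0.33, adjusted p = 0.0224). The tfa mean was 420.7 FPKM in wild type and 333.6 FPKM in the knockout. fgg, a fibrinogen chain, was higher by 0.65 ± 0.09 (adjusted p = 0.000248), and cfh, complement factor H, was lower, at -0.63 ± 0.09 (adjusted p = 0.000222). Among cytochrome P450 genes 23 of 44 were higher and 5 lower. One of these, cyp2n13, was at 2.15, 1.58 and 3.2 FPKM in the wild-type and 8.45, 10.4 and 6.66 FPKM in the knockout libraries, a difference of 1.53 ± 0.17 (adjusted p = 3.75e-05).

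Many proliferation genes were lower. Of 46 tested DNA replication genes 23 were lower and none was higher, and all 46 differences were negative, at a median of -0.27. Of 46 tested mitosis and kinetochore genes 29 were lower and none was higher, at a median of -0.29, and 17 were lower when the hypoxia libraries were fitted alone. The same lists had 18 and 10 lower genes in normoxia, again with none higher, against 9.11% lower among all tested genes. gins4, part of the replicative helicase, was at 5.11, 5.87 and 4.33 FPKM in the wild-type and 1.5, 1.99 and 1.8 FPKM in the knockout libraries. The gins4 values in the knockout were all far below wild type, at -1.14 ± 0.10 (adjusted p = 7.27e-06). The helicase genes mcm6 (-0.52), mcm5 (-0.46) and mcm2 (-0.47) were lower by less. nusap1, a spindle protein, was at 21.1, 22.5 and 17.97 FPKM in the wild-type and 13.3, 12.7 and 12.9 FPKM in the knockout libraries. No nusap1 value crossed between genotypes, at -0.62 ± 0.08 (adjusted p = 9.84e-05). top2a (topoisomerase II, -0.46), kif20ba (a mitotic kinesin, -0.45) and the checkpoint gene bub3 (-0.36) were lower as well.

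In nucleotide synthesis called genes went in both directions. gart, which carries out 3 steps of purine synthesis, was at 12.6, 13.01 and 11.5 FPKM in the wild-type and 6.16, 6.26 and 6.54 FPKM in the knockout libraries. The gart level was lower in each knockout library, at -0.87 ± 0.06 (adjusted p = 1.6e-06). pfas, another purine enzyme, was lower, at -0.77 ± 0.08 (adjusted p = 2.07e-05). cad, the multi-step first enzyme of pyrimidine synthesis, was at 9.98, 10.24 and 9.37 FPKM in the wild-type and 17.5, 18.1 and 15.0 FPKM in the knockout libraries. The cad ranges were separate in the other direction, at 0.72 ± 0.07 (adjusted p = 1.88e-05), and the CTP synthase ctps1b was higher by 1.00 ± 0.09 (adjusted p = 1.22e-05). Over the list, 8 of 26 were lower and 3 higher, which is 42.3% called, against 33.1% of all tested genes.

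Stress genes outside the ATF4 branch differed by pathway. In the p53 list 14 of 34 were higher and 2 lower, at a median of 0.17. pmaip1, the BH3-only cell death gene Noxa (ENSDARG00000089307, GRCz11 chr10:8656417-8657684, plus strand), was at 3.8, 3.42 and 4.3 FPKM in the wild-type and 51.8, 47.2 and 35.0 FPKM in the knockout libraries. Wild-type values of pmaip1 were all under 5 FPKM and the knockout values all at 35 FPKM or above, for a difference of 3.22 ± 0.14 (adjusted p = 2.01e-08). gadd45ab (0.82 ± 0.07, adjusted p = 7.84e-06) and gadd45ba (0.72 ± 0.10, adjusted p = 0.000193), which restrain the cell cycle after stress, and sesn1 (0.42 ± 0.06, adjusted p = 0.000143), a sestrin, were higher.

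Endoplasmic reticulum chaperones and unfolded protein genes were lower in 10 of 40 cases and higher in 6, at a median of -0.02, which was 0.01 without wild-type replicate 1. In the fit of all libraries 40.0% of this list were called, against 33.1% of all tested genes. ero1a, the oxidase that recharges disulfide isomerases, was at 7.03, 5.51 and 5.74 FPKM in the wild-type and 2.29, 2.34 and 2.29 FPKM in the knockout libraries. Its knockout values were tightly grouped and all below wild type, at -1.1 ± 0.11 (adjusted p = 1.75e-05). ern1, the sensor IRE1, and canx, calnexin, were lower, at -0.82 ± 0.09 (adjusted p = 2.41e-05) and -0.48 ± 0.05 (adjusted p = 3.56e-05), and derl3, a degradation factor, was higher by 1.22 ± 0.12 (adjusted p = 1.73e-05).

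Heat shock chaperones were higher in 9 of 33 cases and lower in 6, against 17.0% higher and 16.2% lower among all tested genes. hsp70.1, the inducible Hsp70, was at 1.3, 1.13 and 0.866 FPKM in the wild-type and 4.79, 5.76 and 4.48 FPKM in the knockout libraries. The hsp70.1 values in the knockout were several times those of wild type, by 1.52 ± 0.12 (adjusted p = 2.83e-06). hsp90aa1.2, an inducible Hsp90, and the small heat shock protein hspb15 were higher by 0.62 ± 0.06 (adjusted p = 1.46e-05) and 1.05 ± 0.13 (adjusted p = 6.52e-05), whereas the collagen chaperone serpinh1b was lower, at -0.95 ± 0.08 (adjusted p = 7.39e-06).

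NADPH, glutathione and thioredoxin enzymes were higher in 18 of 35 cases and lower in 2, at a median of 0.24. pgd, an NADPH-making enzyme of the pentose phosphate pathway, was at 27.4, 24.4 and 25.04 FPKM in the wild-type and 50.7, 50.2 and 42.9 FPKM in the knockout libraries. The pgd ranges were far apart, by 0.88 ± 0.08 (adjusted p = 6.24e-06). gstp1.1, a glutathione transferase, was higher by 1.38 ± 0.13 (adjusted p = 1.19e-05), and mt2, a metallothionein, by 1.15 ± 0.10 (adjusted p = 7.74e-06).

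Of 50 tested autophagy and mitophagy genes 23 were higher, 1 was lower and 26 were not called, at a median of 0.20. map1lc3a, an LC3 protein of the autophagosome membrane, was at 21.3, 19.9 and 21.7 FPKM in the wild-type and 44.0, 37.0 and 38.8 FPKM in the knockout libraries. The map1lc3a knockout values were all above wild type, by 0.90 ± 0.08 (adjusted p = 1.16e-05). pink1, the kinase that marks damaged mitochondria, was at 3.09, 3.59 and 3.52 FPKM in the wild-type and 9.05, 8.51 and 8.43 FPKM in the knockout libraries. That difference, 1.14 ± 0.08 (adjusted p = 1.6e-06), was also present in normoxia (0.91). The adaptor sqstm1 (p62) and wipi2, which acts in phagophore growth, were higher by 0.60 ± 0.06 (adjusted p = 1.46e-05) and 0.60 ± 0.05 (adjusted p = 6.84e-06). Subunits of the vacuolar proton pump were higher in 12 of 25 cases, lower in 1 and not called in 12, for example atp6v0d1 (0.42 ± 0.05, adjusted p = 6.18e-05).

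Protein production and disposal genes had medians between 0.07 and 0.13. The share called was 9.3% for proteasome subunits, 28.0% for mitochondrial ribosomal proteins and 26.7% for ribosome biogenesis factors, against 33.1% of all tested genes. Proteasome subunits were higher in 2 of 43 cases and lower in 2, with 8 higher without wild-type replicate 1 and 4 lower without wild-type replicate 3. Cytosolic ribosomal proteins were called in 5 of 79 cases (6.33%), all higher, although 73 differences were positive. That count rested on single libraries, being 40 without wild-type replicate 1, 0 without wild-type replicate 2 or 3, 1 without knockout replicate 1 and 3 without knockout replicate 2. Mitochondrial ribosomal proteins were higher in 17 of 75 cases and lower in 4, with 8 higher without knockout replicate 1 and 11 without wild-type replicate 2 or under equal FPKM totals, and 2 lower without knockout replicate 3 or wild-type replicate 1. mrpl47 was higher by 0.46 ± 0.08 (adjusted p = 0.000729), and mrps23 was lower, at -0.40 ± 0.08 (adjusted p = 0.00242). Ribosome biogenesis factors were higher in 18 of 75 cases and lower in 2, with 9 higher without knockout replicate 1 and 11 without wild-type replicate 2, and 4 lower without knockout replicate 3 or under equal FPKM totals. rrp1, a nucleolar processing factor, was at 7.04, 6.67 and 6.36 FPKM in the wild-type and 11.5, 10.9 and 11.5 FPKM in the knockout libraries, a separation of 0.68 ± 0.06 (adjusted p = 1e-05).

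Many collagens were lower. Of 57 listed collagens 55 were tested, 29 were lower and none was higher, at a median of -0.23. Summed collagen was 3075 to 3288 FPKM in wild type and 2482 to 2575 FPKM in the knockout. By contrast the list had 3 lower and 1 higher in normoxia, against 9.11% and 7.63% of all tested genes. col11a1a, a cartilage collagen chain, was at 136, 153 and 132 FPKM in the wild-type and 75.5, 84.2 and 91.5 FPKM in the knockout libraries. The col11a1a ranges did not meet, at -0.74 ± 0.07 (adjusted p = 1.33e-05). col2a1b (-0.67 ± 0.06, adjusted p = 1.21e-05), col11a2 (-0.79 ± 0.09, adjusted p = 5.44e-05) and the basement membrane chain col4a6 (-0.45 ± 0.05, adjusted p = 2.63e-05) were lower. col28a2a was at 21.9, 18.8 and 16.4 FPKM in the wild-type and 7.09, 5.78 and 7.65 FPKM in the knockout libraries, and was lower in normoxia too (-0.88). The col28a2a ranges in hypoxia were far apart, at -1.35 ± 0.10 (adjusted p = 2.89e-06).

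Notochord and cartilage markers were called in 22 of 23 cases, 19 lower and 3 higher, at a median of -0.44. epyc, a small cartilage proteoglycan, was lower, at -0.54 ± 0.07 (adjusted p = 6.69e-05). ntd5, a notochord sheath gene, was at 19.4, 20.6 and 21.5 FPKM in the wild-type and 39.3, 40.8 and 39.3 FPKM in the knockout libraries. It was higher, by 0.92 ± 0.05 (adjusted p = 1.74e-07). The other 2 higher genes, picked out after their values were seen, were matn3b, a matrilin (0.51 ± 0.08, adjusted p = 0.000486), and ucmaa, a cartilage matrix protein gene (0.86 ± 0.16, adjusted p = 0.00187).

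Skeletal muscle genes went both ways, with 18 of 53 lower and 13 higher, 10 lower without wild-type replicate 1, and 28 lower under equal FPKM totals. acta1b, a skeletal alpha actin, was at 2279, 1934 and 1955 FPKM in the wild-type and 1347, 1192 and 1247 FPKM in the knockout libraries. The acta1b level was lower in all knockout libraries, at -0.70 ± 0.07 (adjusted p = 1.57e-05), and its copy acta1a by -0.80 ± 0.07 (adjusted p = 8e-06). The other defining muscle markers, mylpfa (0.0, adjusted p = 0.996) and ckma (-0.13, adjusted p = 0.0825), were not called. pvalb4, a calcium-buffering parvalbumin, was at 218, 219 and 206 FPKM in the wild-type and 362, 364 and 330.4 FPKM in the knockout libraries. The pvalb4 values were higher by 0.71 ± 0.05 (adjusted p = 1.74e-06), and the fast troponin tnni2b.1 by 0.59 ± 0.05 (adjusted p = 1.19e-05). Heart muscle genes were called in 5 of 18 cases (27.8%, against 33.1% of all tested genes). The 4 higher ones numbered 2 without knockout replicate 1 or 2 and 1 without knockout replicate 3 or wild-type replicate 2. The median of the list, 0.01, became -0.04 under equal FPKM totals. myl4, an atrial myosin light chain, was higher by 0.72 ± 0.09 (adjusted p = 0.000135).

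Skin genes were higher in 12 of 33 cases and lower in 5, against 17.0% higher and 16.2% lower among all tested genes. The lower ones numbered 2 without knockout replicate 2 or wild-type replicate 1 and 3 without knockout replicate 3. epcam, an epithelial adhesion protein, was at 158, 144 and 154 FPKM in the wild-type and 287, 278 and 255 FPKM in the knockout libraries. The epcam difference of 0.84 ± 0.06 (adjusted p = 2.31e-06) had a normoxic counterpart of 0.79. krt97, a keratin, was higher by 0.93 ± 0.10 (adjusted p = 3.27e-05). The defining epidermis markers went the other way. krt4 was at 6478, 5710.0 and 5806 FPKM in the wild-type and 5011, 4462 and 4780.0 FPKM in the knockout libraries, lower, at -0.34 ± 0.08 (adjusted p = 0.00491). krt5 (-0.19 ± 0.06, adjusted p = 0.0259) and cyt1 (-0.20 ± 0.07, adjusted p = 0.0367) were called lower narrowly. The krt5 call was lost without wild-type replicate 1 (0.0681), without knockout replicate 2 (0.0896) or 3 (0.0518), with the hypoxia libraries alone (0.121) and with no filter (0.054). The cyt1 call was lost without wild-type replicate 1 (0.105) or 3 (0.0505), without knockout replicate 2 (0.143) or 3 (0.0807), with the hypoxia libraries alone (0.13) and with no filter (0.081). Ionocyte transporters, which move salt, acid and ammonia across the larval skin, were higher in 14 of 27 cases and lower in 1. rhcgb, an ammonia channel, was at 5.67, 5.39 and 6.98 FPKM in the wild-type and 14.7, 15.6 and 14.6 FPKM in the knockout libraries. No rhcgb value overlapped, by 1.19 ± 0.11 (adjusted p = 8.68e-06), and the tight junction gene cldnb was higher by 0.73 ± 0.06 (adjusted p = 2.83e-06).

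Photoreceptor genes were higher in 26 of 44 cases and lower in 1, at a median of 0.43. In normoxia 5 were higher and 3 lower, but 32 of the 44 differences were positive, at a median of 0.165. Against 4.74% of all tested genes with an interaction called toward higher, 6 of the 44 had an interaction call, all toward higher in hypoxia. Leaving out single libraries moved this count between 2 (replicate 1 of normoxic wild type) and 25 (replicate 3 of hypoxic wild type). The summed level of photoreceptor genes in hypoxia was 1761 to 2894 FPKM in wild type and 3305 to 3452 FPKM in the knockout. Both were below the 4066 to 4526 FPKM of normoxic wild type. gngt2b, a cone transducin gamma chain, was at 177, 213 and 243 FPKM in the wild-type and 353, 321 and 354 FPKM in the knockout libraries. All gngt2b values in the knockout were above wild type, by 0.71 ± 0.09 (adjusted p = 0.000139). gngt2a (1.05 ± 0.10, adjusted p = 1.18e-05), the green cone opsin opn1mw2 (0.85 ± 0.07, adjusted p = 7.4e-06) and pde6ga, a rod phosphodiesterase subunit (1.08 ± 0.16, adjusted p = 0.000263), were higher. Lens crystallins were called higher in 5 of 40 cases and lower in 4, which is 22.5% called, against 33.1% of all tested genes. These counts moved with single libraries: 9 were higher without wild-type replicate 1, and 1 was lower without it or without knockout replicate 2 or 3. crygm2d11, a gamma crystallin, was higher by 0.42 ± 0.08 (adjusted p = 0.00158).

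Neuron and synapse genes gave 9 higher and 6 lower of 41, with 13 lower and a median of -0.02 in place of 0.07 without wild-type replicate 1, and 3 higher under equal FPKM totals. In the fit of all libraries 36.6% of this list were called, near the 33.1% of all tested genes. elavl3, a pan-neuronal RNA-binding protein, was at 59.5, 74.7 and 55.5 FPKM in the wild-type and 40.5, 40.2 and 45.6 FPKM in the knockout libraries. Its wild-type replicate 2 was highest, all knockout values were lower, and the difference was -0.57 ± 0.10 (adjusted p = 0.00101). sncga (gamma synuclein) was lower, at -0.74 ± 0.12 (adjusted p = 0.000517), and eno2 (neuronal enolase) and gad1b (GABA synthesis) were higher by 0.36 ± 0.06 (adjusted p = 0.000608) and 0.40 ± 0.08 (adjusted p = 0.00168). Among glial markers 5 of 18 were higher and 5 lower, which is 55.6% called, against 33.1% of all tested genes. The glutamine synthetase genes glula and glulb, which bind ammonia into glutamine, were among the higher ones; glula was at 87.7, 80.8 and 108 FPKM in the wild-type and 171, 161 and 137 FPKM in the knockout libraries. They differed by 0.76 ± 0.10 (adjusted p = 0.000124) and 0.60 ± 0.07 (adjusted p = 4.96e-05).

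Hormone, clock and inflammatory genes were higher in the knockout more often than lower. Of 17 tested glucocorticoid axis and responsive genes 10 were higher and none lower, at a median of 0.46. tat, liver tyrosine aminotransferase and a classic glucocorticoid-induced gene (ENSDARG00000069630, GRCz11 chr18:13162728-13179510, plus strand), was at 4.18, 2.95 and 4.61 FPKM in the wild-type and 41.5, 54.1 and 41.5 FPKM in the knockout libraries. The mean tat level was 11.7 times that of wild type without overlap, a difference of 3.25 ± 0.16 (adjusted p = 6.13e-08). sgk1, a steroid-induced kinase, was higher by 0.68 ± 0.08 (adjusted p = 4.66e-05), and hsd20b2 and hsd11b2, which inactivate cortisol, by 0.84 ± 0.10 (adjusted p = 5.68e-05) and 0.49 ± 0.05 (adjusted p = 3.3e-05). Clock genes were higher in 20 of 38 cases and lower in 2. nr1d1 (Rev-erb alpha), a repressor arm of the clock, was at 0.695, 0.4 and 1.1 FPKM in the wild-type and 3.52, 3.73 and 3.25 FPKM in the knockout libraries. It was higher by 1.4 ± 0.14 (adjusted p = 1.63e-05) here and by 1.67 in normoxia. cry1a (0.87 ± 0.08, adjusted p = 7.45e-06), per2 (0.68 ± 0.08, adjusted p = 3.91e-05) and tefa (0.72 ± 0.07, adjusted p = 1.63e-05), which light also induces in zebrafish, were higher.

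Inflammatory mediators were higher in 14 of the 24 tested of 39 listed and lower in none. cebpd, an acute-phase transcription factor, was at 76.9, 68.1 and 73.3 FPKM in the wild-type and 158, 144 and 124 FPKM in the knockout libraries. The cebpd values were all above wild type, by 0.95 ± 0.09 (adjusted p = 1.29e-05). nfkbiaa, a feedback inhibitor of NF-kappaB, and the chemokine cxcl8b.1 were higher by 0.48 ± 0.07 (adjusted p = 0.000388) and 0.89 ± 0.13 (adjusted p = 0.000357), the latter at 0.356, 0.0863 and 0.435 FPKM in the wild-type and 1.33, 1.52 and 1.28 FPKM in the knockout libraries. Macrophage and neutrophil markers were called in 6 of 22 cases (27.3%, against 33.1% of all tested genes), 5 of them higher. The defining markers mpx, lcp1, csf1ra, mpeg1.1 and lyz were not called (adjusted p from 0.509 to 0.955). mpeg1.2, a perforin of macrophages, was higher by 0.51 ± 0.11 (adjusted p = 0.00297).

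Immediate early genes, which respond within minutes to stimuli, were higher in 15 of 32 cases and lower in 1, among them fosab (1.02 ± 0.16, adjusted p = 0.000454), egr4 (1.02 ± 0.15, adjusted p = 0.000251), ier2a (0.61 ± 0.08, adjusted p = 0.000143) and dusp1 (0.48 ± 0.08, adjusted p = 0.000456). IGF and insulin genes were higher in 10 of 24 cases and lower in 1, at a median of -0.04 that was 0.004 to 0.023 when knockout replicate 1 or any wild-type library was left out. In the fit of all libraries 45.8% of this list were called, against 33.1% of all tested genes. igfbp1a, a fasting and hypoxia-induced IGF binding protein, was at 40.0, 33.9 and 34.1 FPKM in the wild-type and 69.2, 66.4 and 57.4 FPKM in the knockout libraries. The igfbp1a groups were apart by 0.82 ± 0.12 (adjusted p = 0.000268). igfbp6b (0.94 ± 0.11, adjusted p = 4.66e-05) and the insulin receptor substrate irs2a (0.61 ± 0.08, adjusted p = 0.000137) were higher also. Of the 6 tested ponzr genes, a cysteine-rich family, 3 were higher, with ponzr3 at 101, 85.0 and 92.5 FPKM in the wild-type and 167, 151 and 125 FPKM in the knockout libraries, a difference of 0.66 ± 0.16 (adjusted p = 0.00827). Endothelial and VEGF genes were higher in 9 of 33 cases and lower in 5; 5 were higher without wild-type replicate 3, and 3 were lower without knockout replicate 1 or 3 or wild-type replicate 2. Over all tested genes 17.0% were higher and 16.2% lower. Of the defining endothelial markers, cdh5 (VE-cadherin) was lower, at -0.33 ± 0.07 (adjusted p = 0.00228), kdrl, a VEGF receptor gene, at -0.15 ± 0.05 (adjusted p = 0.0463), and tie1 was not called (0.13 ± 0.07, adjusted p = 0.176). The kdrl call was lost when any 1 of 5 hypoxia libraries was left out (adjusted p = 0.0642 to 0.131), with the hypoxia libraries alone (0.146), array weights (0.0874) and the replicate block (0.0707).

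The greatest single differences were partly constitutive. lgals3b, a galectin (ENSDARG00000044001, GRCz11 chr17:10824659-10838434, minus strand), was at 76.3, 69.5 and 60.2 FPKM in the wild-type and 0.682, 0.609 and 0.349 FPKM in the knockout libraries. It was under 1 FPKM in each knockout library, a difference of -5.49 ± 0.11 (adjusted p = 1.52e-11), and also in normoxia (52.5, 61.0 and 58.1 FPKM in wild type, 0.583, 0.506 and 0.311 FPKM in the knockout). malb, a membrane proteolipid of epithelia (ENSDARG00000030094, GRCz11 chr17:22102791-22106541, plus strand), was at 18.9, 17.7 and 22.2 FPKM in the wild-type and 0.143, 0 and 0 FPKM in the knockout libraries, and listed at 0 in the 3 normoxic knockout libraries. The malb difference in hypoxia was -4.30 ± 0.09 (adjusted p = 1.69e-11). Both genes lie on chromosome 17, as does qpct, a glutaminyl cyclase (-1.77 ± 0.17, adjusted p = 1.35e-05), and 33.6% of the tested genes of that chromosome were called.

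The other 9 of the 12 greatest falls under the naming rule differed by -2.08 to -1.38. They were gsta.2 (a glutathione transferase), smc1a (a cohesin subunit), p2rx7 (an ATP-gated channel), ccdc34, spock2 (a matrix proteoglycan), apcs (a pentraxin), rab27b (a secretory GTPase), rbp2b (a retinol-binding protein) and acot17 (an acyl-CoA thioesterase). spock2 read 37.5, 41.4 and 41.0 FPKM in the wild-type and 12.5, 12.4 and 14.3 FPKM in the knockout libraries. The spock2 replicates were close together and its normoxic difference (-1.59) was near the hypoxic one (-1.54).

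Of the 12 greatest rises, 8 were genes known from gut, pancreas or liver: tat, hpxa, cela1.7, apoa4b.3 (2.27 ± 0.18, adjusted p = 2.89e-06) and apoa4b.2 (1.90 ± 0.14, adjusted p = 1.7e-06), which are apolipoproteins A-IV, the aminopeptidase anpepb.1 (1.98 ± 0.17, adjusted p = 5.34e-06), the peptide transporter slc15a1b (1.94 ± 0.20, adjusted p = 2.3e-05) and the elastase ela3l (1.96 ± 0.25, adjusted p = 9.65e-05). cela1.7, another elastase gene, was at 0, 0 and 0.251 FPKM in the wild-type and 4.1, 3.22 and 2.36 FPKM in the knockout libraries. The cela1.7 level was at or near 0 in wild type. Among the others, cart3, a CART neuropeptide, was at 1.62, 2.65 and 2.68 FPKM in the wild-type and 22.1, 23.4 and 18.8 FPKM in the knockout libraries. The cart3 difference was 2.77 ± 0.14 (adjusted p = 8.65e-08), with wild type far below. kcnk3b, a potassium leak channel, was at 0.359, 0.541 and 0.507 FPKM in the wild-type and 4.55, 5.7 and 3.39 FPKM in the knockout libraries, a difference of 1.90 ± 0.15 (adjusted p = 3.5e-06), and ms4a17a.8, of a membrane protein family, differed by 2.43 ± 0.11 (adjusted p = 4.95e-08).

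The same genotypes in normoxia, in libraries not shared with the hypoxic comparison, had 3595 called genes (16.7%), 1638 (7.63%) higher and 1957 (9.11%) lower. That count was 2266 without knockout normoxia replicate 2, 2144 without knockout normoxia replicate 3 and 2048 without wild-type normoxia replicate 3. With array weights 5471 genes were called in normoxia and 5857 in hypoxia, so the gap between the 2 counts depends on the weights. Called in both oxygen states were 2190 genes, which is 30.8% of the hypoxic calls and 60.9% of the normoxic calls, and 2099 of them had the same direction and 91 the opposite one. Across all genes the differences in the 2 states had a Pearson correlation of 0.593, given as a description since genes are not independent. A further 4921 genes were called in hypoxia and not in normoxia, but 3575 of these had no interaction call, so a change of the genotype effect with oxygen was not shown for them.

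The interaction test asked whether the genotype difference in hypoxia differed from that in normoxia. It was called for 1986 genes (9.25%), 1019 (4.74%) with a higher difference in hypoxia and 967 (4.50%) with a lower one. Under equal FPKM totals the split was 429 with a higher and 1720 with a lower difference. This count depended on single libraries: it was 611 without knockout hypoxia replicate 1, 1242 without knockout hypoxia replicate 2, 997 without wild-type hypoxia replicate 2, 1040, 1085 and 557 without knockout normoxia replicates 1, 2 and 3, and 480 and 655 without wild-type normoxia replicates 1 and 3. In 1598 of the cases the gene was also called in hypoxia.

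**Figure D4:**
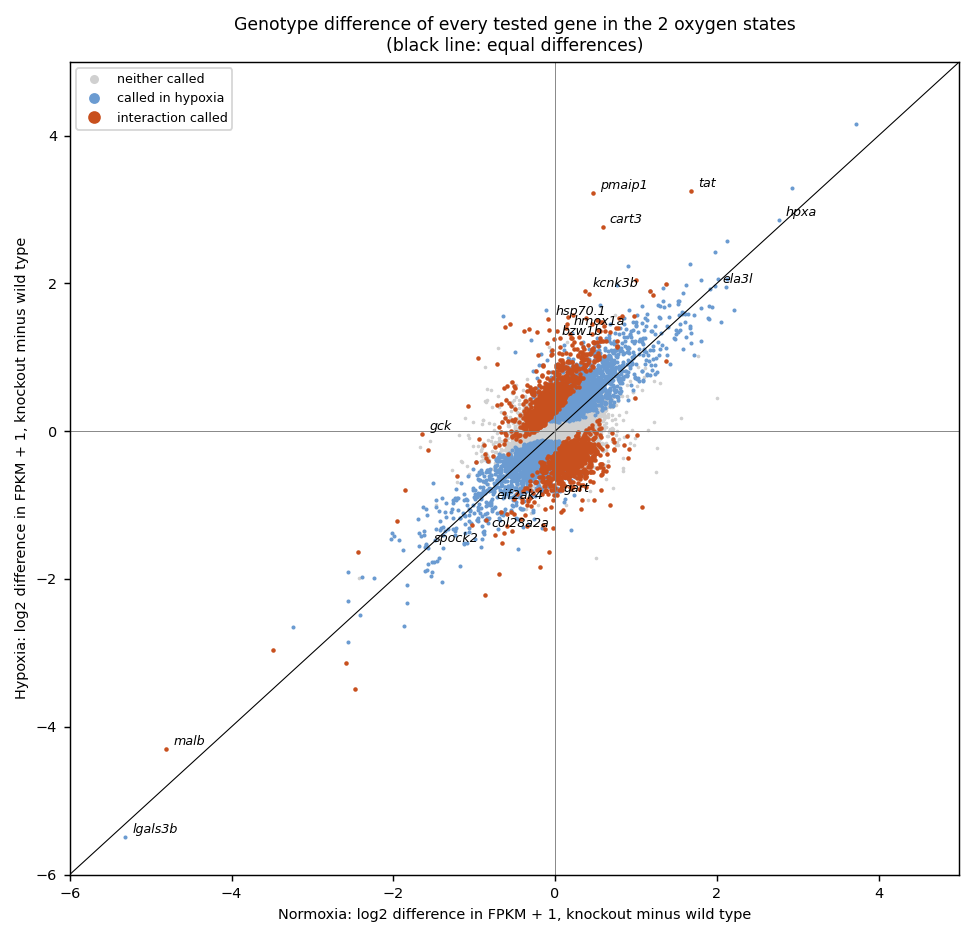
Each point is 1 of the 21480 tested genes, with its knockout minus wild-type log2 difference in normoxia (x axis) and hypoxia (y axis), blue where called in hypoxia and orange where the interaction was called. lgals3b and malb lie at the lower left with low values in both states, and pmaip1 and cart3 lie near 0 to 0.6 in normoxia and above 2.7 in hypoxia.

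Against 4.74% of all tested genes with an interaction called toward higher and 4.50% toward lower, heat shock chaperones had 9 interaction calls of 33, all toward higher in hypoxia, and 7 to 10 when single libraries were left out. Collagens had 18 of 55, all toward lower, and 11 without wild-type normoxia replicate 1. Autophagy genes had 13 of 50 toward higher, and 6 without wild-type normoxia replicate 1 and 8 without knockout hypoxia replicate 1 or wild-type normoxia replicate 3. Respiratory chain genes had 29 of 92, all higher, but this ranged from 6 without wild-type normoxia replicate 1 to 61 without wild-type hypoxia replicate 1, and was 12 under equal FPKM totals. Neuron and synapse genes had 12 of 41, all toward lower. Only 1 was left without knockout hypoxia replicate 1, knockout normoxia replicate 3 or wild-type normoxia replicate 1 or 3. Haem synthesis genes had 6 of 20, all toward higher, and none without wild-type normoxia replicate 1.

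The 12 genes with the smallest interaction p took several patterns. For pmaip1, the normoxic values were 2.93, 2.22 and 2.69 FPKM in wild type and 4.57, 3.39 and 4.01 FPKM in the knockout, against a hypoxic knockout at 35 FPKM and above, and the interaction was 2.76 ± 0.19 (adjusted p = 8.63e-05). bzw1b, a regulator of start codon choice that resembles eIF5, was at 29.3, 24.9 and 28.5 FPKM in normoxic wild type, 26.4, 27.9 and 27.7 FPKM in the normoxic knockout, 30.0, 29.5 and 31.5 FPKM in hypoxic wild type and 84.6, 74.0 and 63.4 FPKM in the hypoxic knockout. Only the hypoxic knockout stood apart for bzw1b, with an interaction of 1.26 ± 0.13 (adjusted p = 0.000748).

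ak3, a mitochondrial adenylate kinase, was at 45.8, 48.9 and 46.1 FPKM in the hypoxic knockout and 23.5, 21.6 and 26.0 FPKM in hypoxic wild type (0.89 ± 0.09, adjusted p = 0.000748 for the interaction). dusp27, a muscle pseudophosphatase, was at 12.4, 11.9 and 11.0 FPKM in hypoxic wild type and 23.4, 23.2 and 20.7 FPKM in the hypoxic knockout, against 6.03, 5.67 and 6.26 FPKM and 5.58, 6.21 and 6.29 FPKM in normoxia (0.86 ± 0.10, adjusted p = 0.00148 for the interaction). These genes had the hypoxic knockout above every other group.

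In the other direction, actc2, an actin of cardiac muscle type, was at 187, 159.7 and 171 FPKM in hypoxic wild type and 76.8, 77.4 and 79.1 FPKM in the hypoxic knockout, against 91.0, 92.8 and 84.1 FPKM and 72.4, 67.4 and 66.9 FPKM in normoxia. Hypoxic wild type alone was high, and the interaction was -0.77 ± 0.09 (adjusted p = 0.00131). gart was lower in the hypoxic knockout and near equal in normoxia (13.8, 14.9 and 15.2 FPKM and 14.2, 15.3 and 15.0 FPKM), with an interaction of -0.89 ± 0.09 (adjusted p = 0.000748). By contrast gck, the liver glucokinase, was low throughout hypoxia: it was at 7.53, 7.5 and 9.62 FPKM in wild type and 1.51, 2.19 and 2.18 FPKM in the knockout in normoxia, against 0.214, 0.166 and 0.188 FPKM and 0.0855, 0.193 and 0.197 FPKM in hypoxia. The gck interaction was 1.6 ± 0.17 (adjusted p = 0.000898), and both hypoxic groups were near 0.

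The remaining genes of the 12, cart3 (2.18), hmox1a (1.25), hsp70.1 (1.6), hsp90aa1.2 (0.97) and pgd (1.02), had interactions toward higher values in hypoxia. The sign of the hsp90aa1.2 difference changed with oxygen: hsp90aa1.2 was lower in the normoxic knockout (-0.34 ± 0.06, adjusted p = 0.00233), at 28.2, 27.7 and 28.7 FPKM in wild type and 21.4, 22.1 and 22.6 FPKM in the knockout, and higher in the hypoxic one. For pgd, at 41.5, 37.0 and 42.0 FPKM in normoxic wild type and 34.5, 38.1 and 35.9 FPKM in the normoxic knockout, the normoxic difference was -0.15 ± 0.08 (adjusted p = 0.204).

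**Figure D5:**
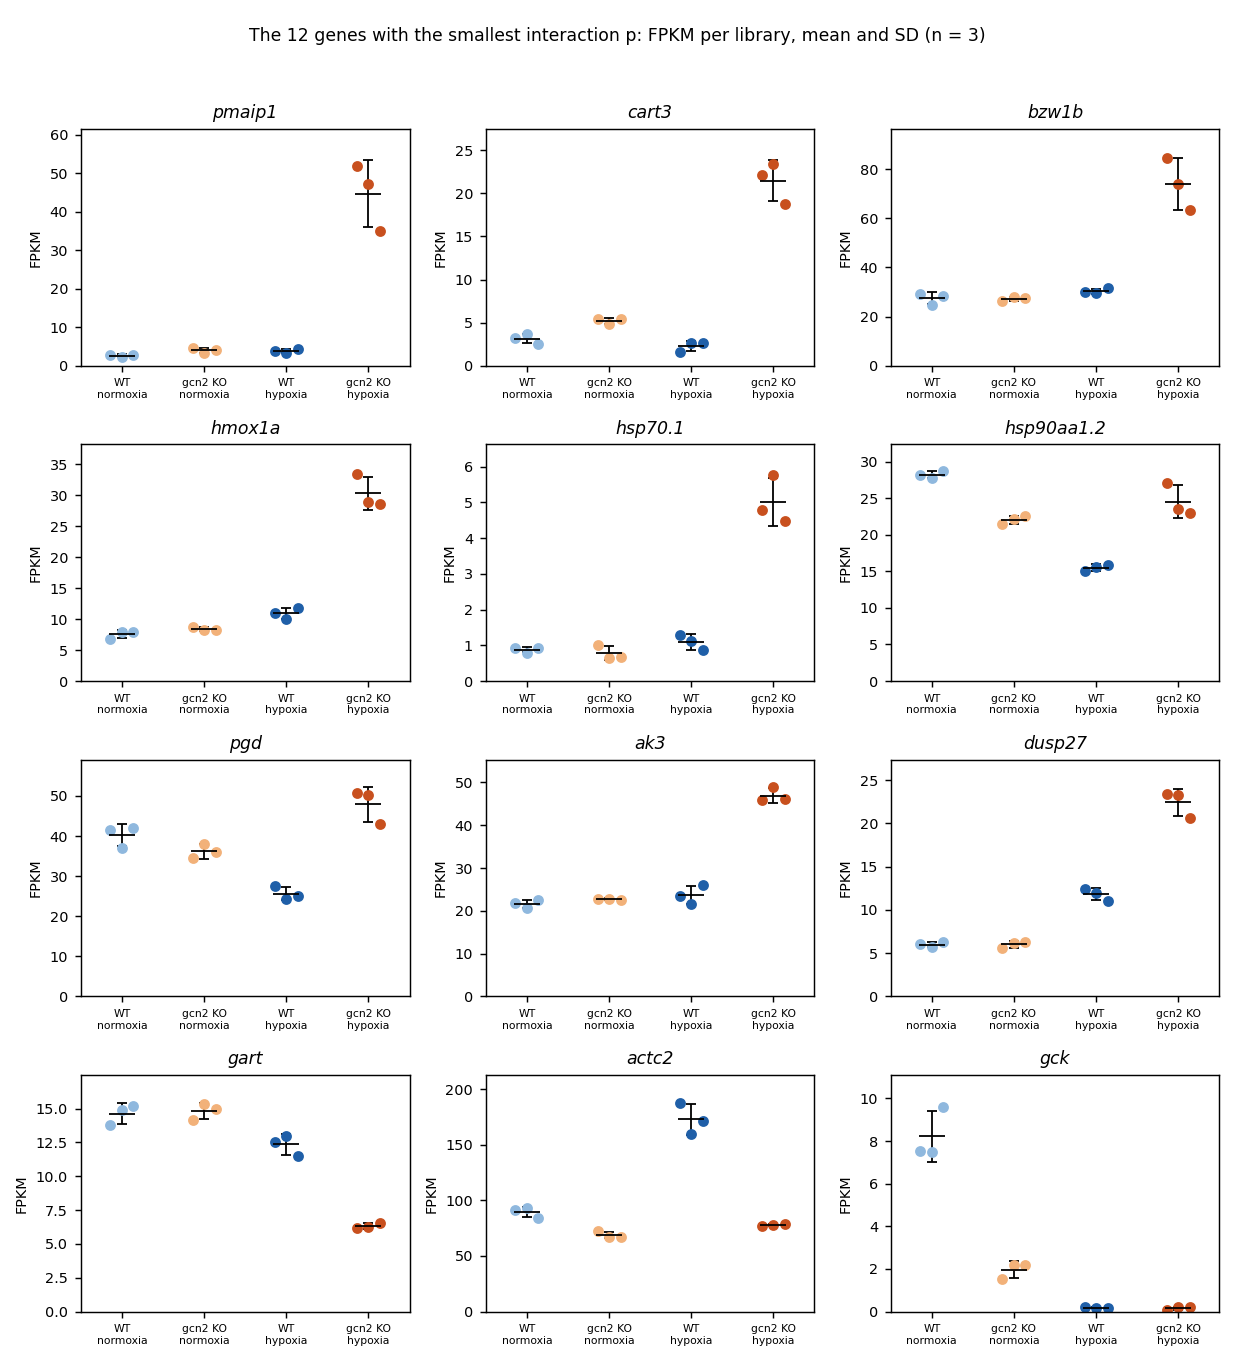
FPKM in each of the 12 libraries (points), with group mean (line) and SD (error bar, n = 3), for the 12 genes with the smallest interaction p. The hypoxic knockout stands above the other 3 groups for pmaip1, cart3, bzw1b, hmox1a, hsp70.1, ak3 and dusp27 and below them for gart, actc2 is high in hypoxic wild type, and gck is above 1 FPKM in normoxia alone.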

How the data were processed

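Whole larvae 3 days after fertilization, wild type or gcn2 knockout, gave poly(A) RNA libraries after 8 hours of normoxia or hypoxia, with 3 libraries in each of 4 groups. RNA was taken with TRIzol and libraries were made with an NEBNext Ultra kit, per the labels' protocols. The submitters' processing notes name fastp, HISAT2 2.2.1, featureCounts 2.0.6 and the GRCz11 build; strand and multi-mapping settings are not given in the sources used here. The deposited values are FPKM per gene, computed by the authors. Multiplying them by gene length gave whole reads, within a tolerance of 0.05, for 100% of values, and 15668848 to 16841145 reads per library. The FPKM behaved as scaled by an effective library size rather than by the read total.

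From these values, log2(FPKM + 1) was fitted with limma 3.58.1 (R 4.3.3, trend) on 4 group means over 12 libraries, with 8 residual degrees of freedom, for genes at 1 FPKM or more in at least 3 libraries. Calls used a Benjamini-Hochberg adjusted p under 0.05. The fit was also run on simulated reads with the same dispersion for every gene, so that run does not measure the error rate of these calls. Tables and plots used Python 3.11.15, pandas 2.3.3 and matplotlib 3.10.9. Nothing says that libraries came from separate clutches, so p-values measure the spread between these libraries. The spread of each gene was estimated from all 12 libraries together, although it was not equal among them. Array weights, which are lower for more variable libraries, ran from 0.678 to 1.097 in hypoxia and from 0.916 to 1.459 in normoxia.

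Named genes were eif2ak4, the 12 greatest rises and falls among called, non-overlapping genes whose higher group averaged 2 FPKM or more, up to 4 called members of each list with the smallest p, all members of the ATF4, globin, eIF2 and HIF lists, and the 12 genes with the smallest interaction p. Not every gene that this rule names is reported here. Cell type markers came from a separate list. The comparison and the lists were chosen with earlier results of these data known. Alternatives covered pseudocount, filter, scaling, library weights, replicate number, the hypoxia libraries alone, voom on recovered reads, and leaving out each library.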

Additional observations from a re-analysis of the deposited data

Results flagged for a closer look

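The genotype difference in hypoxia differed from that in normoxia for 1986 genes by limma's interaction test, and 109 of them are listed below. Each value below is the hypoxic minus the normoxic difference on the log2(FPKM + 1) scale. Upward and downward refer to this value, which does not tell which genotype moved with oxygen. The interaction count moved with single libraries, as given with the comparison, and the part of any library in a single gene's value was not tested.

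Called in hypoxia and not in normoxia, with the genotype difference shifted upward in hypoxia, were hsp70.1 (1.6), kcnk3b (1.52), pdk2b (1.3), bzw1b (1.26), hmox1a (1.25), pgd (1.02), hspb15 (0.96), ak3 (0.89), dusp27 (0.86), cad (0.81), igfbp6b (0.79), ndufa4l2a (0.73), glula (0.72), glulb (0.70), cxcl8b.1 (0.66), myl4 (0.65), nupr1a (0.65), ier2a (0.64), fgg (0.64), wipi2 (0.63), slc7a6 (0.63), hif1al (0.63), hsd20b2 (0.62), tnni2b.1 (0.60), cebpb (0.58), tefa (0.58), mrpl47 (0.57), mpeg1.2 (0.55), sqstm1 (0.55), eif4ebp3l (0.54), cth (0.54), ndufs6 (0.53), bnip3lb (0.52), pdk4 (0.51), sdhc (0.49), ppp1r15a (0.49), irs2a (0.43), clpxb (0.42), crygm2d11 (0.41), clpxa (0.41), atp6v0d1 (0.40), atp5if1b (0.40), hsd11b2 (0.39), acadm (0.34), sdhdb (0.33), sesn1 (0.33), uqcrh (0.31), idh3a (0.30), acadvl (0.28) and pdha1a (0.26).

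Called in hypoxia and not in normoxia, shifted downward, were hbae5 (-1.16), gart (-0.89), col11a2 (-0.83), slc1a4 (-0.78), elavl3 (-0.76), epb41b (-0.72), col2a1b (-0.71), col11a1a (-0.68), aldh1l2 (-0.52), gcn1 (-0.50), nars1 (-0.37), epyc (-0.37) and canx (-0.32). Called in both oxygen states with the same sign, and shifted upward in hypoxia, were pmaip1 (2.76), cart3 (2.18), tat (1.57), pdk2a (0.85), higd1a (0.75), apoa4b.2 (0.73), fthl28 (0.72), eif4ebp3 (0.70), fbp1b (0.70), gngt2a (0.68), ldhbb (0.67), derl3 (0.66), fabp2 (0.66), ctps1b (0.66), igfbp1b (0.64), map1lc3a (0.63), cpt1ab (0.62), ndrg1b (0.62), fthl31 (0.60), cebpd (0.53), ntd5 (0.52), gcshb (0.52), malb (0.51), pck2 (0.51), opn1mw2 (0.51), cry1a (0.51), apoeb (0.44), gadd45ab (0.43), mrps23 (0.43), per2 (0.42), mat1a (0.42), cldnb (0.40), pvalb4 (0.40) and rrp1 (0.38). Of these, malb and mrps23 were lower in the knockout in both states, so their upward value means a smaller fall in hypoxia. The malb message was nearly absent from the knockout in both states, so its value follows the wild-type level. Called in both states with the same sign, and shifted downward in hypoxia, were apoba (-0.81), actc2 (-0.77), acot17 (-0.75), ero1a (-0.56), pfas (-0.42), hbbe2 (-0.35), col4a6 (-0.28) and aars1 (-0.26). Called in both states with opposite signs, lower in normoxia and higher in hypoxia, were hsp90aa1.2 (0.97) and psat1 (0.79). Called in both states with opposite signs, higher in normoxia and lower in hypoxia, was slc4a1a (-0.79). Called in normoxia and not in hypoxia, with an upward shift, was gck (1.6).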

How the results depend on the processing

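The 7111 hypoxic calls stayed within 1.5 times under all alternatives run: 7072 under equal FPKM totals, 7111 under median ratio scaling, 7039 with a pseudocount of 0.1, 6956 of 31402 genes with no filter, 5087 of 11982 with a filter at 5 FPKM, 5857 with array weights, 5111 with the hypoxia libraries alone, 7487 with voom on recovered reads, and 5224 to 6979 without 1 library (2752 to 3521 higher, 2472 to 3458 lower). Scaling by read totals, chosen after seeing the data, gave 7029. The normoxic count of 3595 became 5471 with array weights and 2048 to 3036 without 1 library. The interaction count of 1986 became 1230 with no filter, 3000 with voom and 480 to 2839 without 1 library; the cause was not tested. The share of calls that were higher in normoxia was 45.6%, 63.1% under equal FPKM totals and 59.9% under read totals, and for the interaction 51.3% and, under read totals, 35.2%, with 429 higher against 1720 lower under equal FPKM totals.

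Samples with the same replicate number had weak residual correlations (from -0.087 to 0.119). Samples with different numbers were not compared, so whether the numbers pair libraries cannot be told. With the replicate block the counts were 6931 in hypoxia, 3534 in normoxia and 1979 for the interaction. Among 260 of the genes named here, none reversed under the settings that tested it, of 16 in all. Under some setting 16 lost the call and 16 gained one, and the filter at 5 FPKM tested fewer of them. Many of these genes were named for a small p or a large difference in these same data. Their stability therefore does not stand for that of all calls. Genes near 1 FPKM rest on the fewest reads.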
